A study of Drosophila melanogaster with 2 samples.

Results

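Promoter peaks of the fly protein CG14441 with summits downstream of the transcription start site (TSS) were examined in ChIP-seq data from whole Drosophila melanogaster embryos. A peak was taken where its summit, the position of highest signal, lay from 0 to 500 bp downstream of the nearest protein-coding TSS, and summits between head-to-head genes were left out. The rule found 320 peaks, 6.26% of the 5115 peaks of the conservative set on the 6 chromosome arms, next to 306 genes. The remaining peaks used for comparison were 1102 with a summit upstream of a single promoter, 719 at head-to-head promoters and 2038 in introns beyond 500 bp of any TSS.

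Both libraries came from embryos aged 0 to 24 h of 1 transgenic strain that expresses CG14441 fused to eGFP, precipitated with an antibody against GFP after sonication. The labels number them as biological replicates 1 and 2 of a single group, so no treatment or genotype was compared. No cell type was separated, so a peak present in few cells and a weak peak in many cells cannot be told apart. The files give peaks and their signal but no read counts, and the depth is unknown.

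A core promoter is the stretch around the TSS where RNA polymerase II is loaded. In Drosophila it is marked by short elements such as the initiator, the TATA box, the downstream promoter element and the DNA replication-related element (DRE), which is bound by DREF and BEAF-32. Downstream of the TSS lie the 5′ untranslated region (5′ UTR), often the first intron, and the site where paused polymerase waits in many developmental genes. The accessible stretch just upstream of the TSS is where most sequence-specific factors are mapped, which is why summits on the transcribed side were looked at apart.

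The sequences under the strongest downstream summits in introns show how rich in A and T those sites were. They are the first 4 intronic summits by signal found in both replicates and in which no UTR lies, taken from the Release 6 genome, 101 bases centred on the summit, on the strand of the gene. Capitals mark runs of 6 or more A or T.
Ptp4E, chrX:4939942-4940042, plus strand: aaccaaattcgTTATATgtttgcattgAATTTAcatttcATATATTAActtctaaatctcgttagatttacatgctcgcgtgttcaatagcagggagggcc
CG31612, chr2L:21794915-21795015, minus strand: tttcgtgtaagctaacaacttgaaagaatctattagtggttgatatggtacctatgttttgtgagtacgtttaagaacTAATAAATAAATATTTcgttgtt
Cftr, chr3R:24543184-24543284, minus strand: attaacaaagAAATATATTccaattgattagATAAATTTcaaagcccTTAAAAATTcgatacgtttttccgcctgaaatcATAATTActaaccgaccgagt
rudhira, chrX:11818556-11818656, plus strand: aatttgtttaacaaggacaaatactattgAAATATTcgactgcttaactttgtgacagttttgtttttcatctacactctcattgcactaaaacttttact
The GC content of these windows was 34.7% at Ptp4E, 28.7% at CG31612, 29.7% at Cftr and 28.7% at rudhira.

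At summits in 5′ UTR exons, 30 bases are shown, first for 4 strong summits found in both replicates and then for 3 not found in both. GstE13 and Ufsp1, which had higher signals than CG4497, are not among them. The last 3 had no run of 6 or more A or T, and neither had CG18622. Capitals again mark runs of 6 or more A or T.
CG9399, chr3R:9574141-9574170, minus strand, both replicates: gcTAAAATTATTTTTATAATTgtgtaattg
ph-p, chrX:2137887-2137916, minus strand, both replicates: actaaacgttttcATTTTActtatcgtaac
CG18622, chr3R:16986638-16986667, minus strand, both replicates: ccaaatcaggtttttggctaacaatgctta
CG4497, chr2L:7194548-7194577, minus strand, both replicates: tctctatcattggcATTATActacTAAATT
CG31729, chr2L:13291188-13291217, plus strand, not in both: gtcatagatccggaaaatggctcatccacg
Hakai, chr2L:19582426-19582455, minus strand, not in both: ccctggccaaacgcaaatgcggagctaaac
Cftr, chr3R:24543890-24543919, minus strand, not in both: ttgtatttcattcggtcccgaacttttgaa
These 7 windows held 16.7% GC at CG9399, 26.7% at ph-p, 36.7% at CG18622, 26.7% at CG4497, 50% at CG31729, 56.7% at Hakai and 36.7% at the Cftr summit near the TSS.

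The summits crowded against the TSS, were fewest from 200 to 249 bp and were more frequent again toward 500 bp. Their median position was 105.5 bp downstream (95% order-statistic interval 92 to 126 bp, n = 320), with quartiles at 42 and 308 bp. The first 50 bp held 94 summits and the next 50 bp held 57, the bin from 200 to 249 bp held 8, the bins from there to 449 bp held 14 to 18, and the last bin before 500 bp held 33. On the upstream side of the same kind of promoter the counts per 50 bp were 117 in the bin next to the TSS and 187 at 151 to 200 bp. The first downstream bins therefore continue the fall that begins on the upstream side. The bin just past the 500 bp limit held 20, and those from there to 1000 bp held 17 to 31.

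**Figure D1:**
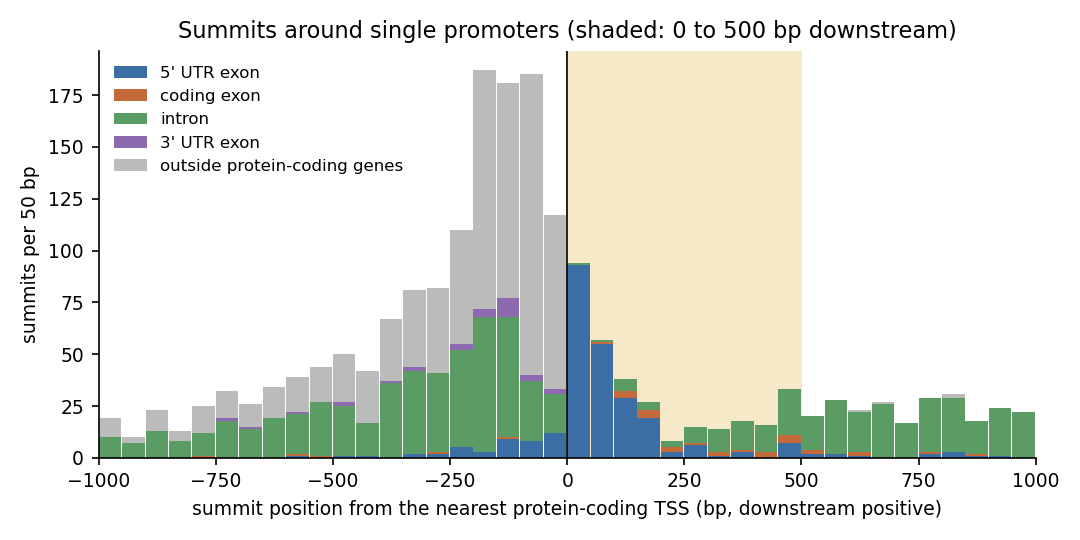
Number of summits per 50 bp (vertical axis) by position from the nearest protein-coding TSS in bp (horizontal axis), without head-to-head promoters, coloured by the gene feature at the summit. The shaded bins hold the 320 downstream peaks, with 94 in the first bin and 8 in the bin from 200 to 249 bp.

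Summits lay close to both sides of the rule's limits. Just inside the TSS edge, vig2 and IP3K1 had summits at 0 bp with signals of 143 and 105. Just outside it, shot and CG5114 had summits 1 bp upstream (position -1) with signals of 127 and 89.1. At the far edge, CG15465 at 497 bp (signal 89.6) and FucTC at 499 bp (130) were inside, and CG10383 at 501 bp (86.2) and CG15247 at 505 bp (234) were outside.

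Of the 1422 promoter peaks not at head-to-head pairs, the 320 downstream ones made up 22.5% (exact 95% interval 20.4 to 24.8%). Intervals on shares here are Clopper-Pearson and cover counting error only. By arm this share was 22.2% on 2L, 26.9% on 2R, 20.9% on 3L, 21.1% on 3R and 21.9% on X, and the intervals of all 5 arms overlapped. Chromosome 4 had 2 upstream and 0 downstream peaks.

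By gene feature, 90.7% of the proximal downstream peaks, up to 200 bp from the TSS, lay in 5′ UTR exons. Of the distal ones, beyond 200 bp, 68.3% lay in introns, 19.2% in 5′ UTR exons and 12.5% in coding exons. First exons begin at the TSS, so feature goes with distance in part by gene structure. Of all 320, 216 (67.5%, interval 62.1 to 72.6%) had the summit in a 5′ UTR exon, 83 (25.9%, 21.2 to 31.1%) in an intron and 21 (6.56%, 4.11 to 9.86%) in a coding exon. The summit lay in the first exon of a transcript from the nearest TSS in 226 (70.6%) and before the start codon of every coding transcript from that TSS in 272 (85.0%). All 83 intronic summits lay past the end of the first exon of such a transcript, at a median of 170 bp beyond it (interval 140 to 199 bp, range 5 to 405 bp). Another protein-coding gene had a TSS within 500 bp of 11 of the summits (3.44%), and 29 (9.06%) also lay inside another protein-coding gene.

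Many of these genes have several starts, so downstream of one TSS can be upstream of the next. A total of 237 (74.1%) were next to a gene with more than 1 annotated TSS, against 58.0% of the peaks upstream of single promoters. In 65 (20.3%, interval 16.04 to 25.1%) the summit was also within 500 bp upstream of another TSS of the same gene. Those included GstE13, an epsilon-class glutathione S-transferase, CG9399, CG18622, Ufsp1, a UFM1-specific protease, CG4497, CG2811 and the carbonic anhydrase gene CAH3, 7 of the 15 strongest.

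The downstream peaks were weaker than the other promoter peaks. Their median pooled signal, the enrichment the authors deposited for both replicates together, was 89.9 (interval 85.4 to 96.5). It was 135 (127 to 144) upstream of single promoters, 152 (140 to 161) at head-to-head promoters, 109 (107 to 113) in introns beyond 500 bp and 116 (113 to 119) over all peaks. The interval of the downstream peaks overlapped none of these. Signals ranged from 3.46 to 1709, and 43 of the 320 reached 200.

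GstE13, 72 bp downstream of its TSS, was the strongest, with a pooled signal of 1709. It read 996 in the first replicate column and 719 in the second (858 ± 196, SD, n = 2), and both replicate lists placed its summit at 72 bp as well.
CG9399 had a pooled signal of 836 at 56 bp and read 465 and 364. ph-p, which encodes the Polycomb repressive complex 1 subunit polyhomeotic, came next with 719 at 470 bp, and read 418 and 304. The first column was the higher one in each of these 3.

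Intronic summits were well represented near the top. Ptp4E, a receptor tyrosine phosphatase, had a signal of 583 at 411 bp and read 316 and 267 in the columns. CG31612 had 567 at 482 bp, with 319 and 252. Cftr, named for the CFTR chloride channel, had 545 at 191 bp, with 286 and 255. The egh gene, which encodes a glycosphingolipid mannosyltransferase, had 526 at 384 bp, with 304 and 227. rudhira and scramb2, a phospholipid scramblase gene, followed with 436 at 269 bp and 407 at 353 bp. Among these 6, the replicates' own summits were closest together in Ptp4E, at 408 and 413 bp, and farthest apart in scramb2, at 362 and 326 bp.

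The other 6 of the first 15 lay in 5′ UTR exons. CG18622 read 346 and 329 (pooled 663, 198 bp), Ufsp1 307 and 232 (541, 14 bp) and CG4497 290 and 202 (510, 26 bp). Trpm, a cation channel gene, read 229 and 183 (406, 157 bp), CG2811 199 and 192 (390, 42 bp) and CAH3 196 and 197 (384, 127 bp). Over these 15 peaks the first column was higher in all but CAH3, and the SD between columns was largest at GstE13 in absolute terms, while as a percent of the mean it was 22.8% there and 25.9% at scramb2.

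**Figure D2:**
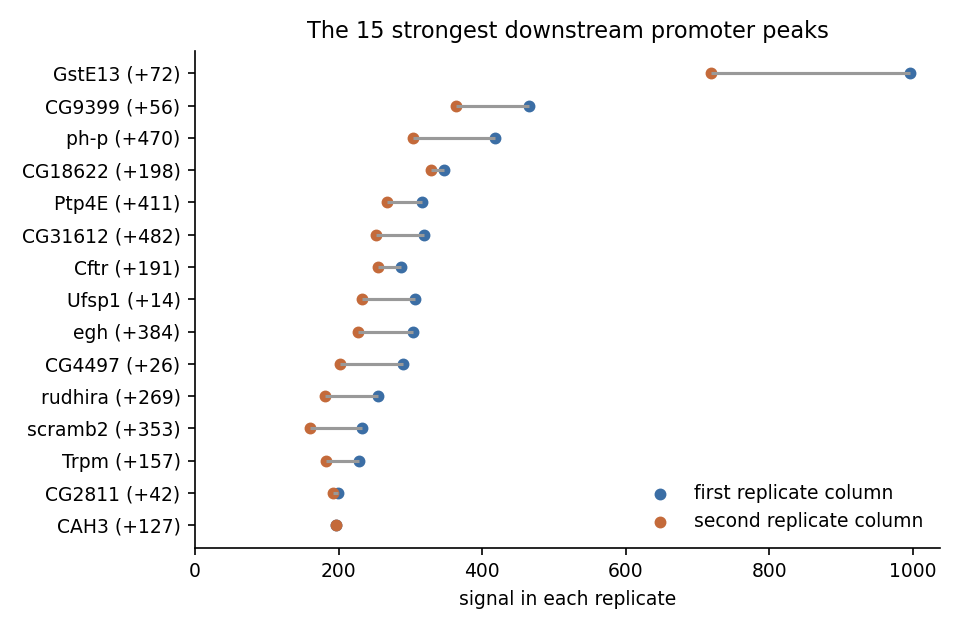
Signal in the first and second replicate column (horizontal axis, linear from 0) for the 15 strongest downstream peaks, with the gene and the summit position in bp on the vertical axis. Each line joins the values of 1 peak, and GstE13 at 996 and 719 stands apart from the other 14.

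The strongest peaks in coding exons were CG44812, with 297 at 400 bp (184 and 109 in the columns), Got2, an aspartate aminotransferase gene, with 141 at 104 bp, and CG15531 with 99.99 at 431 bp. As a class the 21 coding-exon peaks had a median signal of 74.6 (interval 66.8 to 85.0). The median was 86.2 (81.3 to 91.4) in 5′ UTR exons and 119 (107 to 146) in introns, so the intronic interval lay above the other 2.

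Fewer downstream peaks were found in both replicates than was usual for the set. Over all 5115 peaks, 55.4% overlapped a thresholded peak of each replicate by at least 1 bp. Of the downstream peaks 128 did (40%, interval 34.6 to 45.6%), compared with 64.1% (61.2 to 66.9%) upstream of single promoters. A further 34 (10.6%) overlapped a peak of replicate 1 alone, 59 (18.4%) of replicate 2 alone and 99 (30.9%) of neither. Applied to each replicate's own thresholded list, the rule found 166 peaks in replicate 1 and 262 in replicate 2, of which 72.3% and 48.9% overlapped a peak of the other. On the longer ranked candidate lists, 317 of 320 had an overlapping candidate in both replicates (99.1%), as had 99.4% of all peaks.

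The share found in both replicates went with the signal in each of the 4 classes. At pooled signals of 100 to 200 it was 79.3% for the downstream peaks (n = 87), 77.0% upstream of single promoters, 74.5% at head-to-head promoters and 77.2% in deeper introns. At 75 to 100 it was 9% (n = 100), 11.2%, 10.5% and 11.7%. In both steps the intervals of the 4 classes overlapped, and the lower share over all downstream peaks goes together with their lower signal. Share and signal are not independent measures. For most downstream peaks the pooled signal was close to the sum of the replicates' own peak signals, and peaks of those replicates decide the share.

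The peaks from 401 to 500 bp were found in both replicates more often than those from 51 to 100 bp. The share was 34.4% at 0 to 50 bp, 21.8% (interval 11.8 to 35.0%) at 51 to 100 bp, 47.7% at 101 to 200 bp, 34.8% at 201 to 300 bp, 50% at 301 to 400 bp and 57.4% (42.2 to 71.7%) at 401 to 500 bp. By feature it was 34.7% (28.4 to 41.5%) in 5′ UTR exons, 19.05% (5.45 to 41.9%) in coding exons and 59.0% (47.7 to 69.7%) in introns. The signals ran the same way, with medians of 82.3 at 51 to 100 bp and 110 at 401 to 500 bp.

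**Figure D3:**
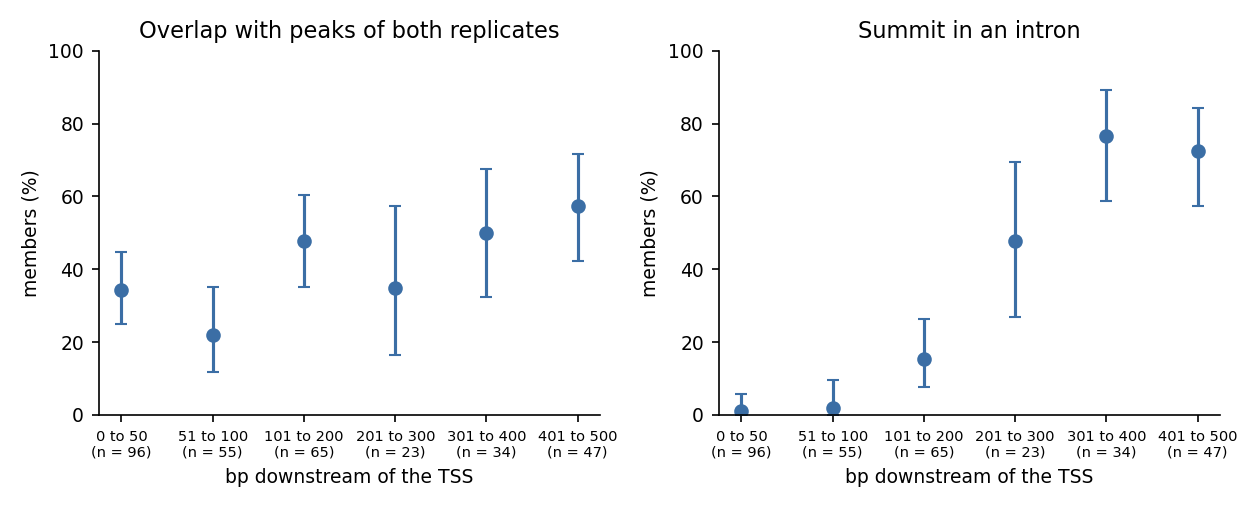
Percent of downstream peaks that overlap thresholded peaks of both replicates (left) and that have the summit in an intron (right) by distance from the TSS, with exact 95% intervals and n under each point. The share in both replicates is 21.8% at 51 to 100 bp and 57.4% at 401 to 500 bp.

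The spread between the replicate columns was about that of the whole set. The SD of both columns was a median of 14.5% of their mean (interval 12.3 to 17.2%, n = 320), against 14.4% (14.04 to 14.8%) over all peaks. The first column was higher in 152 of 320 downstream peaks but in 697 of 1102 upstream ones.

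The side of the TSS was kept by the replicates except close to it. Among the 128 peaks found in both, the replicate's own summit was at or downstream of the same TSS in 117 for replicate 1, in 119 for replicate 2 and in both for 114 (89.1%, interval 82.3 to 93.9%). For upstream peaks found in both, 699 of 706 kept their side. The replicates' summits lay a median of 17 bp apart (interval 14 to 25 bp) for downstream peaks and 15 bp (13 to 17 bp) for upstream ones.
With a pooled summit at 0 to 20 bp, 7 of 18 peaks (38.9%, interval 17.3 to 64.3%) were downstream in both replicates. At 21 to 50 bp it was 13 of 15, and beyond 50 bp 94 of 95 (98.9%). The side of the 18 nearest summits is thus not resolved at this precision, as at vig2, which read -12 bp in replicate 1 and 17 bp in replicate 2. At Sumo, ttv and viaf, with pooled summits at 14, 12 and 0 bp, both replicates placed it upstream.

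Most of these peaks had the same width, with the summit at the same place in it. That place alone does not tell how precise the summit is. A total of 275 of 320 (85.9%) had a fixed width of 324 bp, against 76.7% of all peaks and 70.2% upstream of single promoters. In all 275 the summit stood at base 163 of the peak, beside its middle, as it did in all 3924 peaks of that width in the set. The 275 had a median signal of 83.3, and the 45 of other widths had 297 (interval 239 to 370) and were all found in both replicates.

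A small class of very weak peaks stood beside a stronger one. In 22 of the 320 (6.88%, interval 4.36 to 10.2%) a stronger summit of the set lay within 250 bp, at 199 to 233 bp. The share was 2.81% (1.92 to 3.97%) for peaks upstream of single promoters, 4.31% (2.95 to 6.06%) at head-to-head promoters, 3.78% (2.99 to 4.70%) in introns beyond 500 bp and 3.75% over all peaks, and the head-to-head and intronic intervals overlapped that of the downstream peaks. Their signals ran from 3.46 to 25.9 (median 6.83) and those of their neighbours from 53.9 to 205.5 (median 82.9). Of the 23 downstream peaks with a signal under 30, these were 22, and the other was ome with 24.2. The same held across the set, where 149 of 151 peaks with a signal under 30 had a stronger summit within 250 bp. In all 22 the replicate columns were identical to those of the stronger peak. Where a downstream peak overlapped a replicate's own peak, that peak's signal equalled the column. The 6 of the 22 counted as found in both replicates thus overlap replicate peaks with the stronger peak's values and are not separate detections.
EMC5, a subunit gene of the ER membrane protein complex, shows the pattern. Its peak at 153 bp had a pooled signal of 3.46 but 47.9 and 32.9 in the replicate columns, which belong to a peak of 72.0 with its summit at -51 bp. In uri, the peak at 308 bp had 6.03 and the one at 94 bp had 132, with 81.6 and 51.6 in the columns of both. The pooled signal was a median of 0.0814 of the sum of both columns in these 22 and 0.993 in the other 298. In 16 of the 22 the stronger summit was upstream of the TSS. Without these 22, 298 downstream peaks were left, of which 122 (40.9%) were found in both replicates and 82 were intronic.

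**Figure D4:**
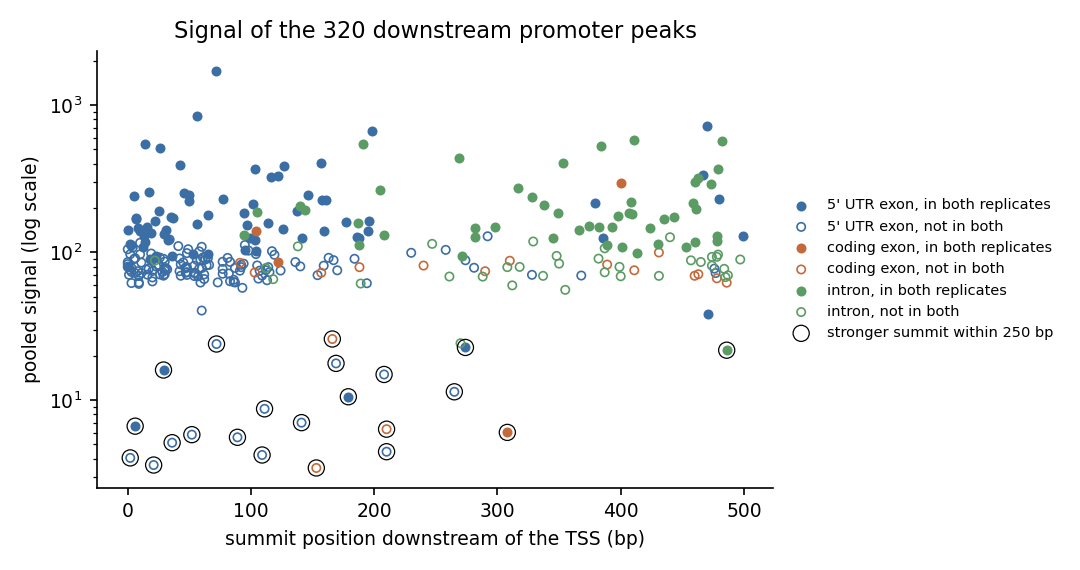
Pooled signal (log scale) by summit position in bp for the 320 downstream peaks, coloured by gene feature and filled where found in both replicates. The 22 ringed peaks have a stronger summit within 250 bp and lie at 25.9 or below.

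Base composition changed with distance from the TSS. The median GC content within 50 bp of the summit was 43.6% (interval 41.6 to 44.6%) for the downstream peaks and 33.7% (33.7 to 34.7%) upstream of single promoters. Up to 200 bp it was 45.0% (43.6 to 46.5%, n = 216), and beyond 200 bp 37.6% (33.7 to 40.6%, n = 104). By feature it was 44.6% in 5′ UTR exons, 57.4% in coding exons and 33.7% (31.7 to 37.6%) in introns, close to the 32.7% of introns beyond 500 bp. Position went with it on the other side too, since the 117 upstream summits within 50 bp of the TSS had 45.5%, the same value as the 96 summits from 0 to 50 bp downstream.

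The stronger the downstream peak, the richer in A and T its summit. The median GC was 48.5% (interval 45.5 to 50.5%) at signals under 75, 45.5% at 75 to 100, 40.6% at 100 to 200 and 32.7% (29.7 to 35.6%) from 200 up. For upstream peaks the same steps read 41.6%, 38.6%, 34.7% and 29.7%. At equal signal the downstream summits thus had more GC. The intervals did not overlap in the first 2 steps and touched at 36.6% in the next. They overlapped in the last, where the upstream interval was 28.7 to 30.7%. The step under 75 includes the 22 weak downstream peaks beside a stronger one, with a median GC of 51.5%. Their pooled signal lay far below the sum of their replicate columns, so it is not a like measure of strength there.

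Centred on the summit, proximal and distal peaks had different profiles. The 104 distal peaks dipped to a mean GC of 38.5% at 25 bp past the summit, from their highest value of 46.7% at 125 bp before it. At 350 bp before and after the summit they read 44.6% and 42.6%. Introns beyond 500 bp read 34.2% at the summit, and peaks upstream of single promoters 33.4% at 50 bp before it. The 216 proximal peaks had no dip at the summit, with 44.9% there and 35.6% at 250 bp upstream of it. Centred on the TSS instead, the proximal peaks' promoters read 34.9% at 200 bp upstream and 46.8% at the TSS, and those of the upstream class 34.8% and 47.9%.

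**Figure D5:**
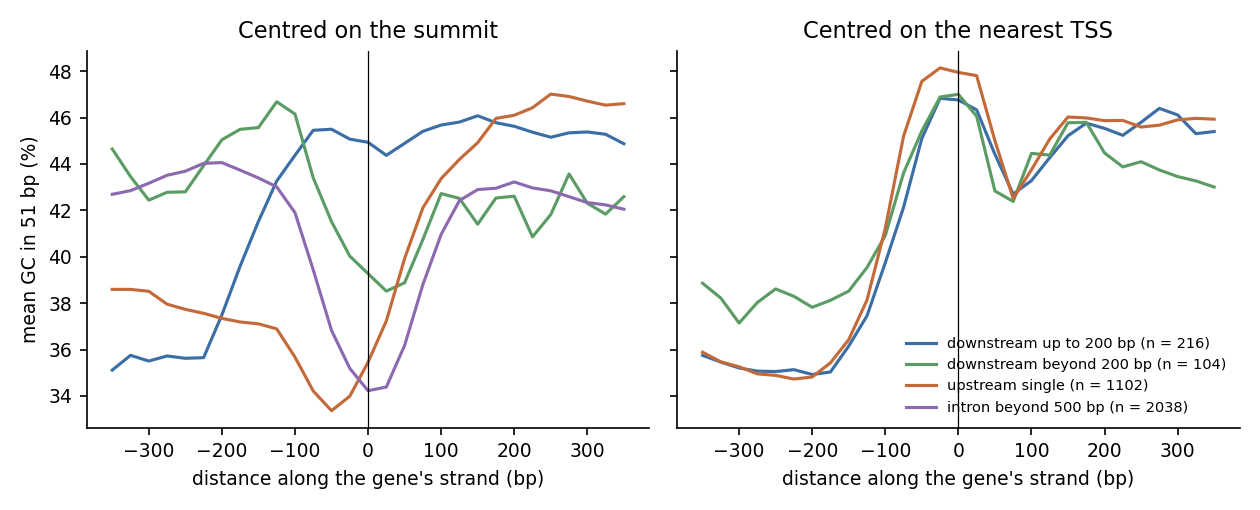
Mean GC content in 51 bp (vertical axis, percent) by distance in bp along the gene's strand from the summit (left) and from the nearest TSS (right). The distal downstream peaks dip near the summit to 38.5%, and the proximal ones do not, at 44.9%.

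Runs of A and T that marked the rest of the set were less frequent at downstream summits. The 10 seven-base sequences with the largest excess at summits over flanks 400 to 450 bp away were chosen on the other 4795 peaks, and all 10 consisted of A and T. At least 1 of them stood within 50 bp of the summit in 128 of 320 downstream peaks (40%, interval 34.6 to 45.6%) and within their flanks in 40.6%. The shares were 56.7% at the summit and 32.2% in the flanks upstream of single promoters. Those upstream peaks were among the peaks used to choose the sequences, and the downstream peaks were not. The upstream excess over flanks is thus set in part by that choice, and the classes are not compared on equal terms. Within the downstream peaks the shares were 36.6% (30.1 to 43.4%) up to 200 bp, with 42.6% in flanks. Beyond 200 bp they were 47.1% (37.2 to 57.2%), with 36.5% in flanks. The intervals of the proximal and distal summits overlapped. Singly, the sequences did not all differ one way between proximal and distal summits: TTTAAAA stood at 4.63% and 12.5%, TATTTAA at 3.70% and 4.81%, AAAATAA at 9.26% and 8.65%, and AAAAAAT at 11.1% and 10.6%.

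The letters of 2 motifs rich in A and T were likewise less frequent at downstream summits. Motifs were searched on both strands within 100 bp of the summit, and a match is a description of the letters only. The TATA-box letters TATAAA stood in 21.2% of downstream windows (interval 16.9 to 26.1%), in 33.8% (31.0 to 36.6%) of upstream windows, in 33.5% of all peaks and in 26.8% of windows of that length around all 19607 protein-coding TSSs. They were in 17.6% (12.8 to 23.3%) of proximal and 28.8% (20.4 to 38.5%) of distal windows, with intervals that overlapped. The AATAAT letters stood in 21.6% of downstream windows (17.2 to 26.5%), 36.6% of upstream ones, 35.6% of all peaks and 22.9% of TSS windows.

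The letters CAGCTG, an E-box recognised by basic helix-loop-helix factors, stood in 15% of downstream windows (interval 11.3 to 19.4%). They were in 10.7% (8.94 to 12.7%) of upstream windows, 9.23% of all peaks and 13.5% of TSS windows, and in 13.8% of the downstream peaks' own flanks. The CACACA letters stood in 23.4% (18.9 to 28.5%) against 14.7% (12.7 to 16.9%) upstream and 16.8% over all, with 25.3% in the flanks. For both, the share at the summit was close to that of the flanks.

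Of the DRE and the cores of Ohler motifs 1, 6 and 7, that of motif 7, CANCNCTA, had the most matches, but it leaves some bases open. In the downstream peaks' flanks the DRE stood in 0.625% and the motif 1 core in 0.938%, so the counts do not rank the motifs. The motif 7 core stood within 100 bp of 33 downstream summits (10.3%, interval 7.21 to 14.2%) and in 5.62% of the downstream peaks' flanks. The share was 12.1% upstream, 9.54% over all peaks and 11.1% around all protein-coding TSSs. The core of Ohler motif 6 was found at 15 (4.69%, 2.65 to 7.61%), against 8.80% upstream, 8.02% over all peaks and 7.50% around all protein-coding TSSs.

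The DRE and Ohler motif 1 were found at fewer summits and mostly lay near the TSS. The DRE, TATCGATA, stood within 100 bp of 11 downstream summits (3.44%, interval 1.73 to 6.07%), against 4.81% upstream, 2.97% over all peaks and 6.43% around all protein-coding TSSs. The core of Ohler motif 1, GGTCACACT, bound by M1BP, was found at 9 (2.81%, 1.29 to 5.27%), against 2.09%, 1.47% and 4.43%. All 9 were among the proximal peaks, as were 10 of the 11 with a DRE. The DRE copies lay a median of 7 bp upstream of the TSS (position -7) and 57 bp from the summit, and 10 of 11 were within 100 bp of the TSS. The motif 1 copies lay at a median of 0 bp from the TSS and 55 bp from the summit. Sites were sought only within 100 bp of summits that mostly lie near the TSS, so these distances are set in part by the search.

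The sites at the 3 strongest such peaks of each motif for which sequence is printed are shown as 30 bases on the strand of the gene, with the motif in capitals. The DRE sites were at cnc, which encodes a bZIP factor of the NRF2 type, RpS15Aa, a ribosomal protein gene, and EndoA, which encodes endophilin.
cnc, chr3R:23190146-23190175, minus strand, DRE: ttacagtgcacTATCGATAtggaggaccca
RpS15Aa, chrX:13337695-13337724, minus strand, DRE: gtccggctaacTATCGATAggcacgttgag
EndoA, chr3R:18906593-18906622, plus strand, DRE: tttaacagaatTATCGATAgtcccgcagct
CG32448, chr3L:21828238-21828267, minus strand, motif 1: tgcagttcgatGGTCACACTattccaaatc
CG3342, chrX:6527868-6527897, minus strand, motif 1: ttttggcgcttGGTCACACTttctgtttcg
CG4098, chr3L:16609367-16609396, minus strand, motif 1: atatgcggcctAGTGTGACCagctggtcct
The DRE of RpS15Aa was 5 bp upstream of the TSS (position -5), that of EndoA 1 bp upstream (position -1), and that of cnc 258 bp downstream, between the TSS and the summit at 328 bp. EndoA had both motifs, with motif 1 at position -29.

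In short windows at their usual places around the TSS, the letters of core elements were about as frequent as in the upstream class. The 320 peaks had 316 different nearest TSSs. The initiator was found at 53 of them (16.8%, interval 12.8 to 21.4%) against 16.7% in the upstream class and 11.4% of all protein-coding TSSs. The letters of the downstream promoter element, RGWYV with a start from 24 to 34 bp, stood at 90 (28.5%, 23.6 to 33.8%) against 31.1% and 24.3%. They leave most bases open and have several possible starts, so a match does not show that a promoter has the element. The TATA box was found at 12 (3.797%, 1.98 to 6.539%) against 4.84% and 9.15%. The TCT initiator, typical of ribosomal protein genes, was found at 1.

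The genes with downstream peaks included 15 of 217 transcription factors (6.91%), against 2.19% of all 13945 protein-coding genes. The strongest were zf30C, a zinc-finger gene, with 251 at 46 bp, cnc with 239 at 328 bp (125 and 114 in the columns), and Dp, the dimerisation partner of E2F, with 219 at 408 bp (104 and 114). Of the 24 insulator and architectural proteins, 4 had a downstream peak (16.7%). They were Trl, which encodes the GAGA factor, with 324 at 116 bp (162 in each column), pita with 153 at 97 bp, CTCF with 112 in an intron at 188 bp, and BEAF-32 with 61.2 at 9 bp. A promoter summit of any class stood at 19.4% of the transcription factors and 29.2% of the insulator list, against 13.9% of all protein-coding genes. Of the genes with such a summit, 35.7% and 57.1% (4 of 7) had a downstream peak, against 15.8% over all. Among the transcription factors, Ptx1 with 5.13 was one of the weak peaks beside a stronger one. These are counts with no test, and 53 of the 320 peaks fell on any list.

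Chromatin regulators had 4 peaks at 3 of 98 genes (3.06%, against 2.19% of all protein-coding genes). ph-p had 2, the one at 470 bp of 1 TSS and one with 179 at 65 bp of another. Ada2b, a SAGA subunit gene, had 125 at 345 bp, and Utx, a histone H3 lysine 27 demethylase gene, had 92.0 at 163 bp. Among RNA-binding proteins 4 of 106 had one (3.77%). They were led by shep with 186 at 349 bp and Sxl, the sex-determination splicing regulator, with 168 at 435 bp, both intronic. Fmr1 followed with 102 at 58 bp, and Hrb98DE with 5.82 was one of the weak peaks beside a stronger one. A promoter summit of any class stood at 18.4% of the chromatin list and 23.6% of the RNA-binding list, against 13.9% over all genes. Of the genes with such a summit, 16.7% and 16% had a downstream peak, near the 15.8% over all genes with one.

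Of 92 cytoplasmic ribosomal protein genes, 50 had a promoter summit of any class (54.3%) and 7 a downstream peak (7.61%). Over all protein-coding genes 1933 (13.9%) had a promoter summit. The 7 were 14% of the ribosomal protein genes with such a summit, near the 15.8% over all genes with one. They hugged the TSS, at 10 bp in RpS23, 16 bp in RpS15Aa, 19 bp in RpL30, 20 bp in RpS26, 31 bp in RpL12, 33 bp in RpS6 and 91 bp in RpL6. Signals ran from 63.6 at RpS26 to 149 at RpS15Aa, where the columns read 81.9 and 76.7. RpS23 had 139 and RpL30 had 136, and at RpL30 the replicates placed the summit at 67 and 19 bp. At RpS23 they placed it at 10 bp and at -34 bp, which is upstream. RpL6, RpL12 and RpS26 were not found in both replicates. As given above, the side of summits within 20 bp of the TSS was not resolved as a group. None of the 7 was intronic.

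The cytoskeleton list gave 7 of 87 genes (8.05%), against 2.19% of all protein-coding genes. A promoter summit of any class stood at 25.3% of the list, against 13.9% of all protein-coding genes. The 7 were 31.8% of the list's genes with such a summit, against 15.8% over all genes with one, without a test. The regulatory myosin light chain gene sqh led with 370 at 103 bp (218 and 150), sw, a dynein intermediate chain gene, had 172 at 37 bp and Atat, a tubulin acetyltransferase gene, had 113 at 2 bp. Signalling gave 6 of 121 (4.96%), and 19.8% of that list had a promoter summit of any class. The 6 were 25% of its genes with such a summit. They included Su(dx) with 7.02, one of the weak peaks beside a stronger one. The Hippo pathway gene mats had 293 at 473 bp in an intron (165 and 125), Mer, another gene of that pathway, had 189 at 105 bp, and hpo itself had 81.7 at 25 bp.

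The smaller counts were 4 of 130 for vesicle trafficking (3.08%) and 2 of 83 for the cell cycle (2.41%). There was 1 each of 44 translation factors (2.27%), 73 mitochondrial ribosomal proteins (1.37%) and 87 oxidative phosphorylation genes (1.15%). The share over all protein-coding genes was 2.19%, and counts this small do not set a list apart from it. Trafficking was led by the COPII coat gene Sec13 with 174 at 443 bp, before Rab40 with 73.6 and Rab1 with 71.7. The cell cycle pair was Dp and Cdk2, and Cdk2 (25.9) was one of the weak peaks beside a stronger one, as was mRpS22 (6.34). Thor, the eIF4E-binding protein gene, had 91.0 at 42 bp and ATPsynF had 62.4 at 486 bp. The 48 proteasome genes and 36 heat shock and chaperone genes had 0, and at a share of 2.19% lists of that length hold few.

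At 14 genes there were 2 downstream peaks, and none had more. In 4 of them, CG1640, sdt, smash and uri, both peaks were downstream of the same TSS and the farther one was the weak one of the pair, with 4.46, 22.7, 11.4 and 6.03 against 85.4, 97.1, 92.4 and 132. In the other 10 each peak had its own TSS. Besides ph-p these were CG18622 (663 and 110), CG9399 (836 and 89.6), Cftr (545 and 116), chk (334 and 61.9), Gli (177 and 79.5), Sik3 (157 and 57.6), CG1888 (79.9 and 38.04), GEFmeso (79.3 and 72.6) and Mob2 (81.5 and 73.4).

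The tagged gene's own neighbourhood was dense in peaks. Within 50 kb of the CG14441 starts there were 28 peaks, or 25.6 per 100 kb against 4.16 on the rest of the X chromosome, and 3 were downstream promoter peaks. These were CG14441 itself with 105 at 49 bp, CG14440 with 72.0 at 82 bp and Ctr1A, a copper transporter gene, with 94.7 at 348 bp. None of the 3 was found in both replicates. The part that the transgene has in these 3 was not tested, and without them 317 peaks and a median signal of 89.6 were left.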

How the data were processed

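ChIP-seq peak lists of 1 group with 2 biological replicates were used as the authors deposited them, in dm6 coordinates per the labels. For the aligner, the peak caller and the control used, the sources at hand give no name. The deposited signal is an enrichment value per peak, pooled or per replicate. The deposited −log10 value is a global irreproducibility score and ranked nothing here. The summit column (unit: bp from the peak start) is also the authors', and in every peak of 324 bp it is the base beside the middle. The first and second replicate columns carry no number in the file; they equalled the signal of the overlapping peak of replicate 1 in 162 of 162 and of replicate 2 in 187 of 187 downstream peaks.

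Summits were joined to TSSs of Ensembl release 115 (BDGP 6.54), which has 19607 protein-coding TSSs on the 6 arms. Ties were read as downstream. Sequence came from the RefSeq copy of the same Release 6 assembly. Shares carry exact Clopper-Pearson and medians exact order-statistic 95% intervals, which treat peaks as independent. No test was run, since 1 group gives no comparison between conditions. The calculations used Python 3.11.15, numpy and scipy, and recovered planted positions, overlaps and motifs in simulated data.

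The peaks, gene lists and comparisons were chosen with earlier results of these data known. Of 937 gene symbols written out for the lists, 55 matched no annotated symbol. Genes named are the 15 strongest found in both replicates, the 3 strongest of each feature and list, those at the edges of the rule and those with 2 peaks; others were named after their values were seen.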

Additional observations from a re-analysis of the deposited data

How the results depend on the processing

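No paired analysis was possible because both libraries belong to 1 group. Results changed with signal. Among peaks at or above the median signal 107 downstream peaks were left, 14.2% of single-promoter peaks, with a median position of 161 bp, median signal 177, 40.2% in introns, 29.9% upstream of another TSS of the gene and 95.3% in both replicates. With the list of 1 replicate alone there were 166 to 262 peaks (166 without replicate 2), 16.1% to 22.1% of single-promoter peaks, at a median of 114.5 to 157.5 bp with signals of 54.7 to 68.4 on each list's own scale, 29.4% to 37.3% in introns, 18.7% to 27.1% upstream of another TSS and 48.9% to 72.3% in both replicates. The relaxed set gave 24.95% downstream, a median signal of 81.3 and 32.6% in both.

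Widening the window to 1000 bp gave 481 peaks, 28.4% downstream, a median of 460 bp, signal 102, 55.7% in introns, 11.9% upstream of another TSS, 49.1% in both replicates and 95.8% with the side kept. A 250 bp window gave 62 bp, 6.74%, 30.3% and 79.8% for position, introns, other TSS and side. Starting at 50 bp gave 17.0% downstream, 187.5 bp, 36.3% in introns, 15.5% upstream of another TSS and 98.97% with the side kept. One TSS per gene gave a signal of 97.4 and 41.2% upstream of another TSS. Keeping head-to-head pairs gave 85.5 bp, a signal of 97.1 and 32.9%. Overlap of 50% of both peaks gave 34.1% in both replicates, and summits at least 20 bp downstream in each replicate 79.7%. The alternatives without weak neighbours or the tagged locus, and the GC windows, were added after seeing the data, and moved no value outside its interval. In all, 111 of the recomputed values stayed within their interval or 1.5 times the count and 60 did not. The window settings set positions and intron shares by construction; for the rest the cause was not tested.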
